A study of Mus musculus with 12 samples.

Results

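The genes described here are 9 that act on phosphate, pyrophosphate and the growth of mineral in cartilage and bone: *Alpl*, *Phospho1*, *Smpd3*, *Enpp1*, *Ank*, *Slc20a1*, *Slc20a2*, *Phex* and *Mgp*. They were taken by symbol from an expression table of 36186 gene rows, in which each has 1 row. RNA-Seq was performed on chondrocytes of the mouse forelimb zeugopod (radius and ulna) at E15.5, collected by laser capture microdissection (LCM), in 12 libraries from mice of mixed 129/CD-1 strain background. The WT libraries, 3 from each compartment, came from the resting, proliferative and hypertrophic regions of the growth plate. The other 3 came from *aadd* mutants, homozygous for frameshifts in 6 Hox genes, *Hoxa9*, *Hoxa10*, *Hoxa11*, *Hoxd9*, *Hoxd10* and *Hoxd11*, in which all chondrocytes of the zeugopod were captured as 1 population. The GEO labels call the hypertrophic libraries hyperproliferative and give *aadd* the compartment resting, and the captured tissue held chondrocytes with some perichondrium next to them. Values are NRPKM, RPKM (reads scaled to transcript length and sequencing depth) normalized further between libraries by the authors.

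Mineral in the growth plate first forms in matrix vesicles that bud from maturing chondrocytes, and then spreads along collagen. Inorganic phosphate (Pi) feeds the crystal and inorganic pyrophosphate (PPi) blocks its growth, so the balance between both is set by enzymes and transporters. *Alpl* encodes tissue-nonspecific alkaline phosphatase, which splits PPi, and *Phospho1* encodes a phosphatase that releases Pi from phosphocholine inside the vesicle. *Smpd3* encodes neutral sphingomyelinase, which yields phosphocholine from sphingomyelin. On the opposing side *Enpp1* makes PPi from nucleotides and *Ank* moves PPi and ATP out of the cell. *Slc20a1* and *Slc20a2* are sodium-dependent Pi transporters, *Phex* is a membrane peptidase of bone cells, mutated in X-linked hypophosphatemia, and *Mgp* is matrix Gla protein, a secreted inhibitor of mineralization.

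The 4 genes whose 5′ flanks are shown next were chosen by their calls against resting cartilage. *Alpl*, *Phospho1* and *Phex* were called higher in proliferative and hypertrophic than in resting cartilage, and *Enpp1* was not. Each sequence holds the 250 bases before an annotated start, read 5′ to 3′ in the direction of transcription, from RefSeq on GRCm38.p6. In GENCODE vM21 another transcript of the same gene starts inside the *Phospho1* window and inside the *Phex* window, so that 1 base and 26 bases next to the start are exonic. They lie at chr4:137796385-137796634 on the minus strand for the upstream one of 2 starts of *Alpl*, chr11:95824250-95824499 on the plus strand for *Phospho1*, chrX:157415287-157415536 on the minus strand for *Phex* and chr10:24712160-24712409 on the minus strand for *Enpp1*. Capitals mark the core of a RUNX motif (TGTGGT, or ACCACA on the other strand) or of a GC box (GGGCGG, or CCGCCC), where neighbouring GC boxes may overlap.
Alpl: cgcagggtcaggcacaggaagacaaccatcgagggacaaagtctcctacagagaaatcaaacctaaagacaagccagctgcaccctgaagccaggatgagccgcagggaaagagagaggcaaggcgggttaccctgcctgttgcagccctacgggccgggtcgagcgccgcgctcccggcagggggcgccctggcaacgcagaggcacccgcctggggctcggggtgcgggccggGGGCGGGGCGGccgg
Phospho1: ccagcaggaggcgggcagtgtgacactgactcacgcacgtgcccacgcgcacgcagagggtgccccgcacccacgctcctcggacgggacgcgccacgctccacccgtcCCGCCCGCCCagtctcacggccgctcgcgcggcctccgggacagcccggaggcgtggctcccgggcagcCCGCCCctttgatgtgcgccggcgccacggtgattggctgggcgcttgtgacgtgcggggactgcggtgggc
Phex: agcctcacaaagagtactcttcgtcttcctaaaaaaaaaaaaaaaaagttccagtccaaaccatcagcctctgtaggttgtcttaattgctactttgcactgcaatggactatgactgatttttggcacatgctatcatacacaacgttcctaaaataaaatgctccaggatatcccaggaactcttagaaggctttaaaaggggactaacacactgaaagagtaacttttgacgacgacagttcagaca
Enpp1: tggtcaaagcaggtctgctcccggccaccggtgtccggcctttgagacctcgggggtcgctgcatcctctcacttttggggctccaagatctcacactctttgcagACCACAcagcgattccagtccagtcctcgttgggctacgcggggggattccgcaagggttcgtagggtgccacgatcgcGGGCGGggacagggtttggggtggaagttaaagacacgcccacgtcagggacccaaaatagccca

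RUNX letters occurred at 1 place in the *Enpp1* window and in none of the other 3. GC boxes numbered 2 in *Alpl*, 3 in *Phospho1*, 1 in *Enpp1* and 0 in *Phex*, and the flank of the second *Alpl* start, which is not shown, held 0 of either motif. The *Phex* window was 39.2% G and C against 61.2% to 75.6% in the other 3. Over all 32851 RefSeq windows of this length, 14.05% held the RUNX letters and 32.74% a GC box. A match describes the letters alone, and the data do not say which *Alpl* start was used. *Smpd3*, *Slc20a2* and *Mgp* had no matched entry.

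The reads behind the values were recovered from the value of 1 read on short single-exon genes. Implied depth was 2400000 to 2960000 reads in WT resting, 1890000 to 2620000 in proliferative, 2340000 to 3240000 in hypertrophic and 2200000 to 2870000 in *aadd*. Such limits cover counting error only. Hypertrophic replicate 1 stood apart from replicates 2 and 3. Its *Mmp13*, a collagenase of late hypertrophic cells and osteoblasts, was 3.05 NRPKM against 735 and 661, while its *Col10a1*, the collagen of hypertrophic cartilage, was 264 against 166 and 221. The summed level of 7 osteoclast markers was 26.0 in replicate 1, 816 in replicate 2 and 516 in replicate 3, and that of 6 endothelial markers was 15.6, 211 and 158. Cartilage markers differed too, 6 of them summing to 2187 NRPKM in replicate 1, as in the other compartments (1773 to 3494 over the other 9 libraries), and to 444 and 623 in replicates 2 and 3. Calls in comparisons with the hypertrophic compartment are therefore given with and without replicate 1. In bulk samples such as these, fewer cells of a type and less RNA per cell cannot be told apart.

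A gene was called when limma gave an unadjusted *P* up to 0.05 with a fold change (FC) of at least 2 between WT compartments or 1.5 between *aadd* and WT. Adjusted *P* is Benjamini-Hochberg over the 10936 rows that reached 5 NRPKM in at least 3 libraries. All 9 genes reached it, *Alpl*, *Phospho1* and *Phex* through proliferative and hypertrophic libraries alone. With 3 libraries a group, an exact permutation test of 1 gene cannot fall below *P* = 0.1, so none is given. Folds are on the log2(NRPKM + 0.1) scale unless a floor is named.

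**Figure D1:**
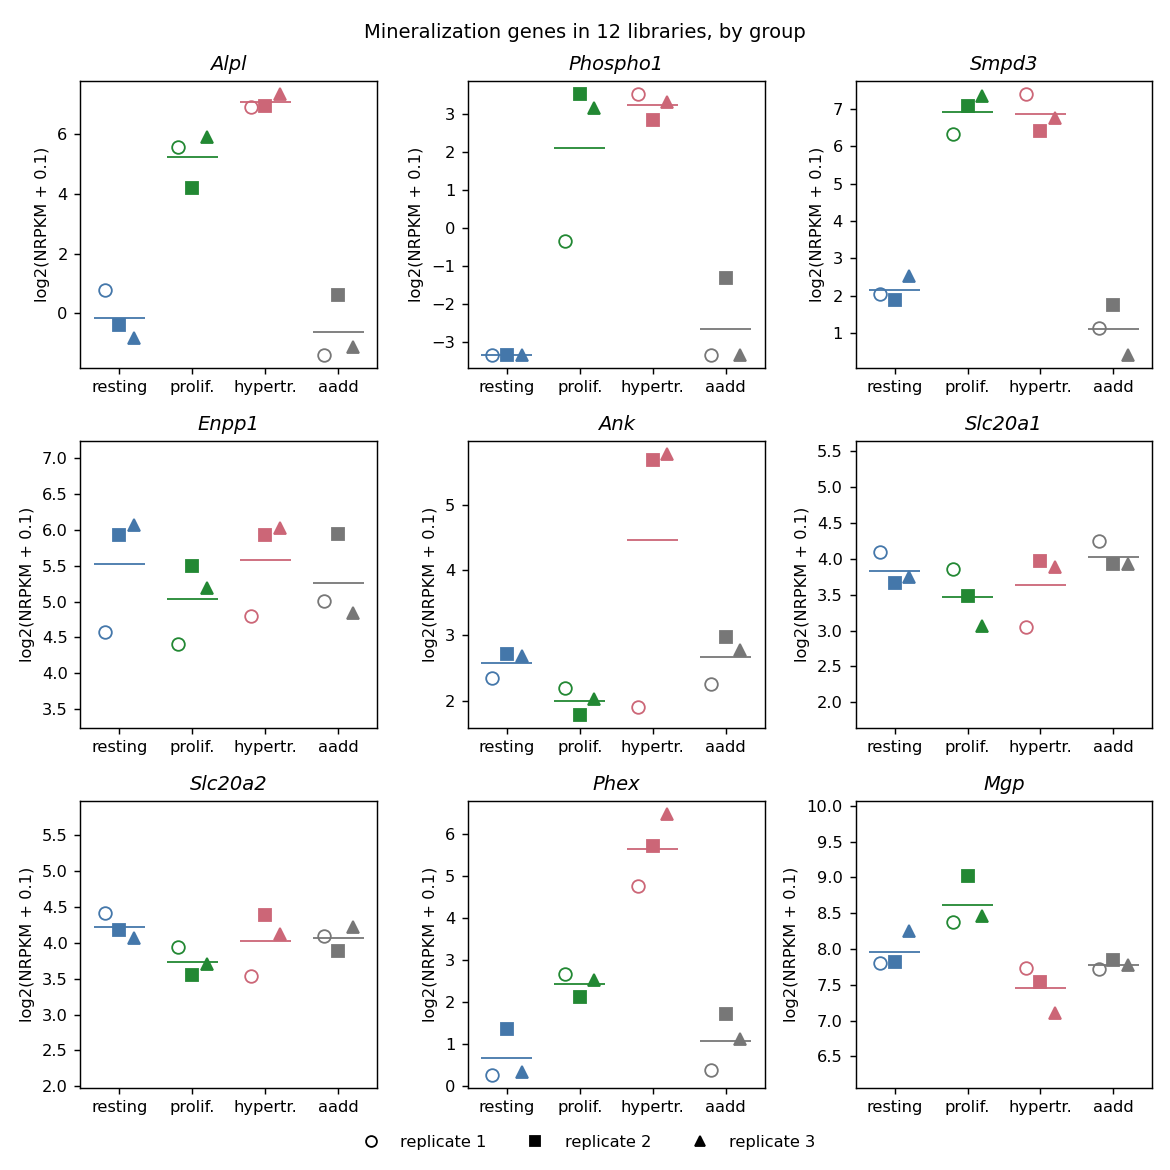
Level of each of the 9 genes in 12 libraries, as log2(NRPKM + 0.1), with 1 point for each library, a bar at the group mean of the log2 values, open circles for replicate 1, squares for replicate 2 and triangles for replicate 3. *Alpl*, *Phospho1*, *Smpd3* and *Phex* lie high in proliferative and hypertrophic libraries, apart from *Phospho1* in proliferative replicate 1 (0.689 NRPKM), *Ank* is high in hypertrophic replicates 2 and 3 (51.6 and 54.8 NRPKM) and not in replicate 1 (3.65 NRPKM), and the vertical range differs between panels.

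Among the phosphatases, *Alpl* (chr4:137741732-137796377, minus strand, 12 exons in its longest coding transcript) was nearly absent from WT resting cartilage, with 1.61, 0.662 and 0.466 NRPKM in replicates 1, 2 and 3, or about 12.04, 4.014 and 3.01 reads. In proliferative cartilage it stood at 47.0, 18.3 and 60.3 NRPKM. In hypertrophic cartilage it was 121, 122 and 162 NRPKM. The 3 WT compartments did not overlap, and hypertrophic replicate 1 was as high as replicate 2. *Alpl* rose 41.4-fold from resting to proliferative (log2 FC 5.37 ± 0.57 SE, limma adjusted *P* = 0.0226). With the replicate number as a block its adjusted *P* there was 0.0686, in a range of 0.00231 to 0.115 over all alternatives, and the call was kept. From proliferative to hypertrophic it rose a further 3.57-fold (log2 FC 1.84 ± 0.458 SE, limma adjusted *P* = 0.16). In *aadd* the level was back at that of resting cartilage or under it, with 0.286, 1.45 and 0.358 NRPKM. The *aadd* and resting libraries overlapped, with a log2 FC of -0.48 whose 95% interval ran from -1.94 to 0.98. Against proliferative cartilage *aadd* was 57.7-fold lower (log2 FC -5.85 ± 0.644 SE, limma adjusted *P* = 0.00842, in a range of 0.000845 to 0.0727 over all alternatives). With 1 library left out this log2 FC ran from -6.48 (without *aadd* replicate 2, the highest of its group) to -5.47 (without *aadd* replicate 1), called in each. The folds of *Alpl* rest on a few reads in resting and *aadd* libraries and depend on the 0.1 added. With 1 NRPKM added the log2 FC was 4.37 between proliferative and resting, 6.18 between hypertrophic and resting and -4.57 between *aadd* and proliferative, all called.

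*Phospho1* (chr11:95824500-95832140, plus strand, 3 exons in its longest coding transcript) was read at low levels. It was at 0 in all 3 resting libraries, and at 0, 0.300 and 0 in *aadd*. By the length of its longest coding transcript the value of 0.300 stands for about 1.26 reads. For the floor used below it was taken as 1 read, so that 3 reads would be worth 0.669 to 0.823 NRPKM in resting libraries. Proliferative replicate 1 held 0.689 NRPKM, about 3.45 reads by that length and fewer on the scale of the floor, and replicates 2 and 3 held 11.3 and 8.73. Hypertrophic libraries held 11.3, 7.09 and 9.89. Proliferative replicate 1 thus lay far under the other proliferative libraries, and those overlapped the hypertrophic ones. Against a floor of 3 reads in each library, the group mean of *Phospho1* was at least 9.16-fold higher in proliferative than in resting and at least 12.5-fold higher in hypertrophic. Both passed the criteria, with limma adjusted *P* = 0.0856 and 0.000107, as did the lower level in *aadd* than in proliferative cartilage (at least 9.03-fold lower, limma adjusted *P* = 0.0702). As all resting values were 0, that group showed no spread, and the adjusted *P* against resting do not measure its variation between libraries. Proliferative replicate 1 itself lay near that floor, so the bounds that use the proliferative mean rest on replicates 2 and 3. Between *aadd* and resting both groups were at or under the floor, and no fold is given.

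*Smpd3* (chr8:106252548-106337988, minus strand, 9 exons) followed the same course at a higher level. Resting libraries held 4.05, 3.62 and 5.64 NRPKM and proliferative libraries 80.5, 134 and 161. Hypertrophic libraries held 168, 84.1 and 108, inside the proliferative range apart from replicate 1, which was a little above it. The rise from resting to proliferative was 26.9-fold (log2 FC 4.75 ± 0.308 SE, limma adjusted *P* = 0.00787, and 0.000864 to 0.0348 over all alternatives). From proliferative to hypertrophic *Smpd3* did not pass (log2 FC -0.06, 95% interval -0.95 to 0.82). Markers of prehypertrophic and hypertrophic cells, 5 of 5 being in the table, are given beside *Alpl*, *Phospho1* and *Smpd3*. They summed to 29.2 to 42.9 NRPKM in resting, 322 to 495 in proliferative, 825 to 1219 in hypertrophic and 17.1 to 25.1 in *aadd* libraries. Without *Mmp13* the sums were 822, 484 and 548 in hypertrophic replicates 1, 2 and 3 and 318, 490 and 481 in the proliferative ones. *Ihh*, a signal of prehypertrophic cells, was 56.3, 9.54 and 15.3 NRPKM in hypertrophic libraries against 20.1 to 40.5 in proliferative ones. The 7 osteoblast markers summed to 170 to 378 NRPKM in resting, 398 to 1067 in proliferative, 1457 to 3113 in hypertrophic and 121 to 404 in *aadd* libraries. The part of either list in the levels of the 3 genes was not tested. *Smpd3* was also the one gene of the 9 called between *aadd* and resting cartilage. The *aadd* libraries held 2.11, 3.28 and 1.24 NRPKM, all under the lowest resting library, for a 2.07-fold fall (log2 FC -1.05 ± 0.354 SE, limma adjusted *P* = 0.407). That call was lost without resting replicate 3 (log2 FC -0.87), without *aadd* replicate 1 (-1.06) and without *aadd* replicate 3 (-0.71). Across all genes tested, 6.56% were called between *aadd* and resting, 3.78% higher and 2.78% lower, 0.119% passed adjustment and 15.4% had no overlap.

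The genes of the PPi side, *Enpp1* and *Ank*, are described separately. *Enpp1* (chr10:24641411-24712102, minus strand, 25 exons) was read in every library, with 23.6, 60.6 and 66.8 NRPKM in resting, 21.2, 45.2 and 36.5 in proliferative, 27.8, 60.5 and 65.1 in hypertrophic and 31.9, 61.4 and 28.5 in *aadd*. All 4 groups overlapped, and replicate 1 was the lowest library of each WT compartment. *Enpp1* passed in none of the 5 comparisons. In the fits without a replicate block the 95% intervals of its log2 FC were wide, from -1.61 to 0.65 between proliferative and resting and from -1.37 to 0.85 between *aadd* and resting, so that a fall of 2-fold lay inside both. Each proliferative library lay under the resting library of its number, and with the replicate block the log2 FC of -0.48 had an interval of -1.01 to 0.04 and was still not called (limma adjusted *P* = 0.271, in a range of 0.265 to 0.9 over all alternatives).

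Since NRPKM is scaled to transcript length, *Alpl* and *Enpp1* were set against each other within a library. How evenly the transcripts of both were amplified and covered was not measured, so the ratio compares libraries better than it compares amounts of mRNA. The ratio of *Alpl* to *Enpp1* was 0.0683, 0.0109 and 0.00698 in resting and 0.00894, 0.0235 and 0.0126 in *aadd*. In proliferative libraries it was 2.22, 0.406 and 1.65, and in hypertrophic libraries 4.36, 2.01 and 2.49. The NRPKM of *Alpl* thus lay under that of *Enpp1* in all resting and *aadd* libraries and in proliferative replicate 2, and above it in the other 5.

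**Figure D2:**
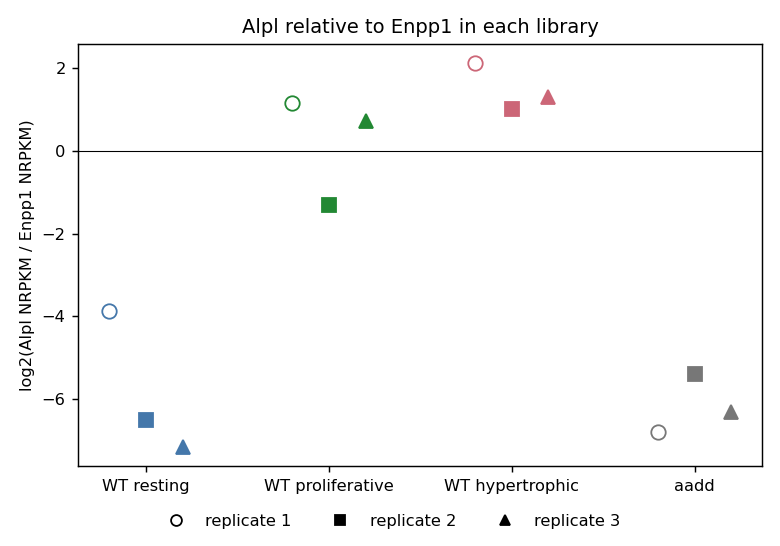
Ratio of *Alpl* to *Enpp1* NRPKM in each library on a log2 axis, by group, where the line at 0 marks equal NRPKM and open circles, squares and triangles mark replicates 1, 2 and 3. Resting and *aadd* libraries lie between 0.00698 and 0.0683 as plain ratios, and hypertrophic libraries between 2.01 and 4.36.

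*Ank* (chr15:27466677-27594907, plus strand, 12 exons) split the hypertrophic libraries. Replicate 1 held 3.65 NRPKM, and replicates 2 and 3 held 51.6 and 54.8. Resting libraries held 4.96, 6.43 and 6.34, proliferative libraries 4.47, 3.34 and 3.96, and *aadd* libraries 4.67, 7.73 and 6.72. Hypertrophic replicate 1 thus lay inside the proliferative range, and the mean of replicates 2 and 3 was 14.6-fold above it. With all 3 libraries *Ank* did not pass between hypertrophic and proliferative (log2 FC 2.46, 95% interval -0.06 to 4.98, limma adjusted *P* = 0.265). It was called there with a pseudocount of 1 (log2 FC 2.29) and in 1 fit of all libraries (2.46), and leaving out hypertrophic replicate 2 or 3 lowered the log2 FC to 1.84 or 1.80, not called. Without replicate 1 it was called, with a log2 FC of 3.74 ± 0.193 SE and limma adjusted *P* = 0.00286, the lowest of a range up to 0.594 over all alternatives. The same held against resting cartilage, with a log2 FC of 1.88 (limma adjusted *P* = 0.297) and of 3.16 without replicate 1 (limma adjusted *P* = 0.000817, in a range up to 0.592), and with a call in 1 fit of all libraries (1.88). Without replicate 2 or 3 it was 1.27 or 1.22 there, not called.

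Other cell types differed between the same libraries. The 7 osteoclast markers summed to 26.0, 816 and 516 NRPKM in hypertrophic replicates 1, 2 and 3, and to 3.52 to 16.9 in the other 9 libraries. In hypertrophic replicate 1 *Calcr* and *Oscar* were at 0 and *Acp5* was 2.92, against 246 and 200 in replicates 2 and 3. *Atp6v0d2* was 5.30 there, above the 9 libraries of the other groups (at most 1.22), and *Ctsk* was 15.95, against at most 11.0 in those. Macrophage markers, 5 of 6 being in the table, summed to 20.8 in the low library and 270 in the highest. The 7 osteoblast markers summed to 1457, 2113 and 3113, and their late marker *Bglap2* was 0, 2.62 and 4.28. The part of these cells in the *Ank* level was not tested. For *Alpl*, hypertrophic replicates 2 and 3 averaged 1.17-fold the level of replicate 1, and *Phospho1* and *Smpd3* were 1.33-fold and 1.75-fold higher in replicate 1 than in that average.

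**Figure D3:**
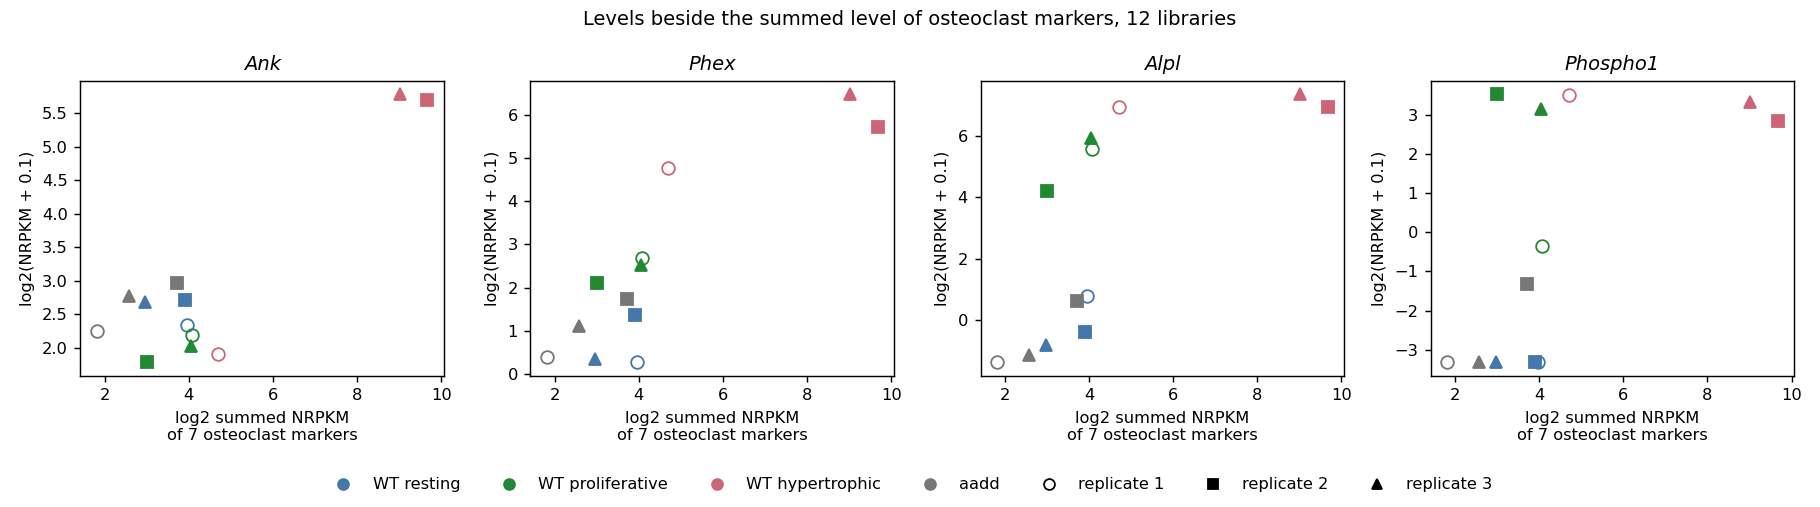
Level of *Ank*, *Phex*, *Alpl* and *Phospho1*, as log2(NRPKM + 0.1), against the log2 summed NRPKM of 7 osteoclast markers, with 1 point for each of 12 libraries, colours for groups and shapes for replicates. Hypertrophic replicates 2 and 3 stand apart to the right at sums of 816 and 516 NRPKM, and replicate 1 (26.0 NRPKM) is low for *Ank* and high for *Alpl* and *Phospho1*.

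Between the other compartments *Ank* moved little. Proliferative libraries all lay under resting ones, by 1.49-fold, short of the FC of 2 (limma adjusted *P* = 0.228). In *aadd* all 3 libraries lay above the proliferative ones, and *Ank* was called 1.59-fold higher (log2 FC 0.66 ± 0.24 SE, limma adjusted *P* = 0.196). Leaving out proliferative replicate 2, proliferative replicate 3, *aadd* replicate 2 or *aadd* replicate 3 ended that call, with log2 FCs of 0.56, 0.68, 0.51 and 0.61. A pseudocount of 1 (0.57), quantile scaling (0.55), 1 fit of all libraries (0.66) and the replicate block (0.66) ended it too. Against resting cartilage *aadd* did not pass (log2 FC 0.09, 95% interval -0.46 to 0.64).

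The Pi transporters were nearly level. *Slc20a1* (chr2:129198773-129211612, plus strand, 11 exons) held 17.0, 12.6 and 13.3 NRPKM in resting, 14.3, 11.1 and 8.22 in proliferative, 8.14, 15.51 and 14.6 in hypertrophic and 18.9, 15.1 and 15.1 in *aadd*. *Slc20a2* (chr8:22476700-22569616, plus strand, 11 exons) held 21.2, 18.1 and 16.7, then 15.4, 11.7 and 12.9, then 11.6, 20.9 and 17.3, and 17.1, 14.7 and 18.6 in the same order. Hypertrophic replicate 1 was the lowest library of both genes in its group, and the ratio of *Slc20a1* to *Slc20a2* stayed between 0.636 and 1.11 in all 12 libraries. Neither gene passed in any of the 5 comparisons. For *Slc20a2* the proliferative libraries lay under all resting ones by 1.40-fold (limma adjusted *P* = 0.267), and for *Slc20a1* the *aadd* libraries lay above all proliferative ones by 1.48-fold (limma adjusted *P* = 0.271). Between *aadd* and resting the 95% intervals were -0.25 to 0.65 for *Slc20a1* and -0.57 to 0.27 for *Slc20a2*, so that differences of 2-fold lay outside both.

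*Phex* (chrX:157162075-157415286, minus strand, 22 exons) climbed at each step. Resting libraries held 1.11, 2.47 and 1.17 NRPKM, proliferative libraries 6.29, 4.22 and 5.65 and hypertrophic libraries 27.2, 52.4 and 88.6. The compartments did not overlap, and hypertrophic replicate 1 was the lowest of its group, 2.59-fold under the mean of the other two. The rise was 3.43-fold from resting to proliferative (log2 FC 1.78 ± 0.335 SE, limma adjusted *P* = 0.0899). With 1 NRPKM added the log2 FC between hypertrophic and resting, 4.99, was 4.35, and the call was kept. From proliferative to hypertrophic the rise was 9.27-fold (log2 FC 3.21 ± 0.443 SE, limma adjusted *P* = 0.107), and without replicate 1 the log2 FC was 3.65 (limma adjusted *P* = 0.00541, in a range up to 0.36 over all alternatives). In *aadd* the level was 1.20, 3.21 and 2.07 NRPKM, overlapping resting cartilage (log2 FC 0.42, 95% interval -0.58 to 1.42) and 2.57-fold under proliferative cartilage (log2 FC -1.36 ± 0.357 SE, limma adjusted *P* = 0.0994). The sums of the osteoblast markers given for *Smpd3* had the same order of WT compartments, and their part in the *Phex* level was not tested.

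*Mgp* (chr6:136872435-136875805, minus strand, 4 exons) was abundant, ranking between 15 and 195 of all rows in every library. It peaked in proliferative cartilage, with 333, 517 and 353 NRPKM, against 223, 226 and 306 in resting, 212, 185 and 138 in hypertrophic and 210, 229 and 219 in *aadd*. The proliferative libraries lay above every other library, and the hypertrophic ones lay under every resting one. From resting to proliferative the difference of 1.58-fold was short of the FC of 2 (limma adjusted *P* = 0.255). From proliferative to hypertrophic *Mgp* fell 2.24-fold (log2 FC -1.16 ± 0.263 SE, limma adjusted *P* = 0.148), and the call was lost without proliferative replicate 2 (log2 FC -0.96) or hypertrophic replicate 3 (-0.99), where the FC dropped under 2. The cartilage markers summed to 2170 to 3494 NRPKM in proliferative and to 2187, 444 and 623 in hypertrophic replicates 1, 2 and 3, and their part in the *Mgp* level was not tested. Without hypertrophic replicate 1 the log2 FC was -1.30 (limma adjusted *P* = 0.0342, in a range of 0.0221 to 0.486 over all alternatives). In *aadd* it was 1.80-fold lower than in proliferative cartilage (log2 FC -0.84 ± 0.215 SE, limma adjusted *P* = 0.0941) and did not pass against resting (log2 FC -0.18, 95% interval -0.61 to 0.25).

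**Figure D4:**
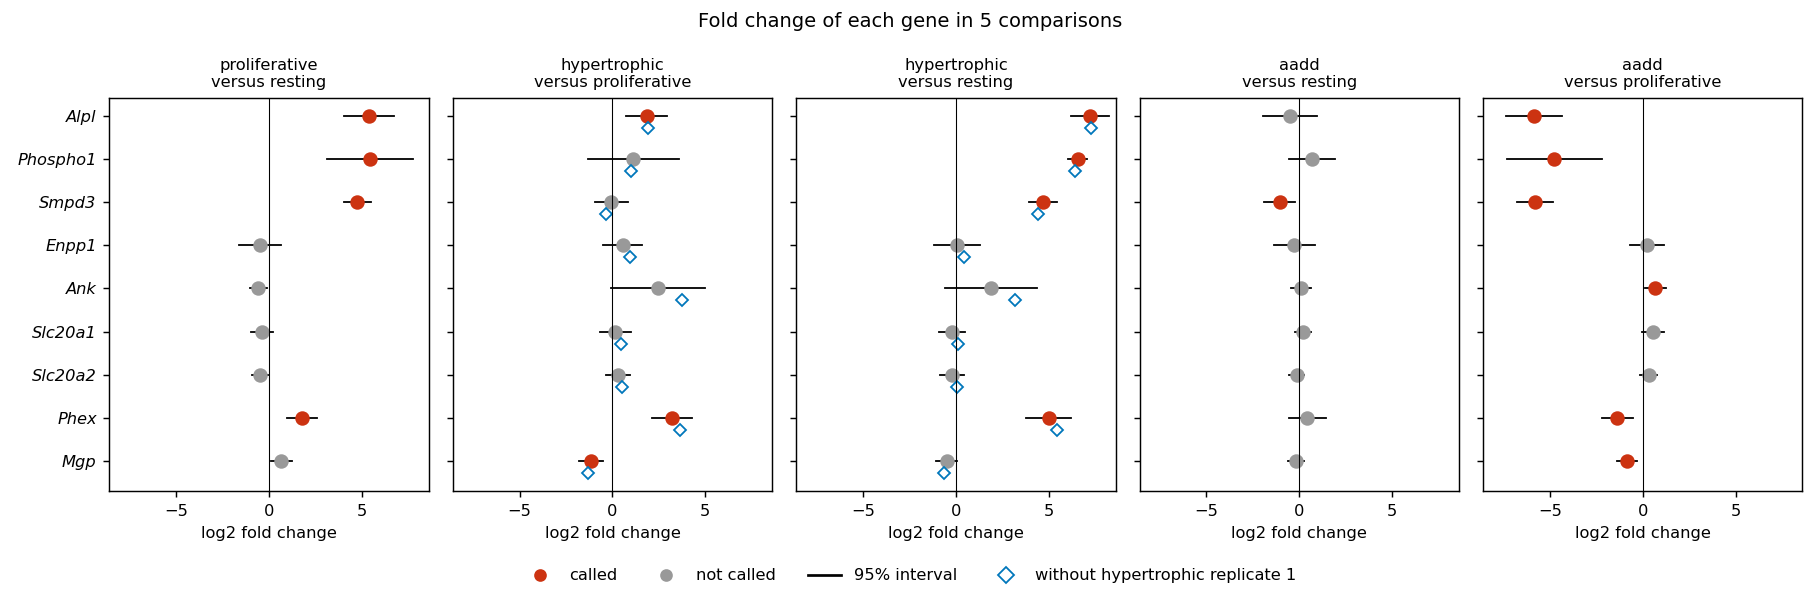
Log2 fold change of each of the 9 genes in 5 pairwise comparisons, with 95% intervals as lines, called genes in red, others in grey, and open diamonds for the fit without hypertrophic replicate 1. *Alpl*, *Phospho1*, *Smpd3* and *Phex* are called higher in proliferative and hypertrophic than in resting cartilage and lower in *aadd* than in proliferative cartilage, and *Ank* moves from 2.46 to 3.74 between hypertrophic and proliferative when replicate 1 is left out.

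Counted by comparison, 4 of the 9 genes were called higher in proliferative than in resting cartilage and 0 lower, where 5.53% of all genes tested were called, 2.56% higher and 2.97% lower. *Alpl*, *Phospho1* and *Phex* passed the filter through proliferative and hypertrophic libraries alone, so calls higher there were favoured from the start. The same limit holds for their counts in the other comparisons with resting or *aadd* and in the F test below. An adjusted *P* under 0.05 was reached by 2 of the 9 and by 0.622% of all genes, and the libraries did not overlap for 7 of the 9 and for 24.0% of all genes. With the replicate block *Alpl* did not reach that adjusted *P*, and the number of all genes that did fell from 68 to 9. Between hypertrophic and proliferative *Alpl* and *Phex* were called higher and *Mgp* lower, beside 9.67% of all genes, 5.32% higher and 4.34% lower. These 3 genes were also the ones with no overlap there, against 24.2% of all genes. In that comparison limma gave 0 genes (0.00%) an adjusted *P* under 0.05 and 2115 of all genes (19.3%) an unadjusted *P* under 0.05, and no other tool was run. Between hypertrophic and resting 4 were called higher and 0 lower, all 4 with an adjusted *P* under 0.05, beside 13.0% of all genes called (5.84% higher and 7.20% lower) and 6.36% that passed adjustment. The libraries did not overlap for 5 of the 9, beside 32.0% of all genes. *Alpl* reached 148-fold (log2 FC 7.21 ± 0.421 SE, limma adjusted *P* = 0.000968), *Smpd3* 25.8-fold (adjusted *P* = 0.0015) and *Phex* 31.8-fold (adjusted *P* = 0.00565), *Phospho1* being given above. The log2 FC of *Phospho1* between hypertrophic and resting depends on the 0.1 added, its resting libraries being at 0. It was 3.36 with 1 NRPKM added and all libraries. Without hypertrophic replicate 1 the log2 FC against resting was 7.28 for *Alpl*, 6.41 for *Phospho1*, 4.42 for *Smpd3* and 5.43 for *Phex*, all called. Against proliferative it was then 1.91 for *Alpl*, which was still called, and 0.98 for *Phospho1*, -0.33 for *Smpd3*, 0.94 for *Enpp1*, 0.46 for *Slc20a1* and 0.52 for *Slc20a2*, which were not. *Mgp* against resting moved from -0.50 to -0.64 and was not called in either fit. For *aadd* against proliferative, 5 were called lower and 1 higher, the latter being the *Ank* call that several settings ended. Of these *Mgp* (1.80-fold) and *Ank* (1.59-fold) lay under an FC of 2, beside 15.8% of all genes called, 6.02% lower and 9.82% higher. With an FC of 2 in place of 1.5 the other 4 stood, all lower, beside 8.02% of all genes called, 3.10% lower. *Alpl* and *Smpd3* also passed adjustment, beside 3.0% of all genes, and 7 of the 9 did not overlap, beside 25.6% of all genes. With the replicate block *Alpl* did not pass it here (limma adjusted *P* = 0.0561). The median log2 FC of the 9 genes was -0.84 in this comparison and -0.15 between *aadd* and resting, and 0.05 and 0.01 over all genes. Both comparisons use the same *aadd* libraries, as those between WT compartments share theirs, so they are given side by side only.

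Across all 4 groups limma's F test gave 5 of the 9 genes an adjusted *P* under 0.05, beside 13.8% of all genes. These were *Smpd3* (adjusted *P* = 3.18e-05), *Alpl* (9.39e-05), *Phex* (0.000504), *Phospho1* (0.00184) and *Mgp* (0.0268), while *Ank* (0.174), *Slc20a2* (0.399), *Slc20a1* (0.412) and *Enpp1* (0.758) did not pass. With 1 library left out, *Mgp* passed in 6 of 12 fits, *Ank* in 1 of 12 (without hypertrophic replicate 1) and the other 4 that passed in all 12, so that 4 to 6 genes passed. As a description over 12 libraries that share group and depth, Pearson's *r* of log2 values was 0.951 between *Alpl* and *Smpd3*, 0.924 between *Alpl* and *Phospho1*, 0.878 between *Alpl* and *Phex*, and -0.015 between *Alpl* and *Enpp1*. *Slc20a1* and *Slc20a2* had an *r* of 0.773, and *Ank* and *Mgp* one of -0.681.

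The genes whose levels ran closest to each of the 9 were found among the rows tested, by the same *r* over 12 libraries. For *Alpl* they were *Unc5b* (0.988), a netrin receptor gene, *Runx2* (0.986), the transcription factor of osteoblasts and hypertrophic chondrocytes, and *Ibsp* (0.983), which encodes bone sialoprotein. *Runx2* averaged 30.6 NRPKM in resting, 80.9 in proliferative, 117 in hypertrophic and 24.3 in *aadd* libraries. *Phospho1* ran closest to *Col10a1* (0.963), *Smpd3* to *Sgms2* (0.974), a sphingomyelin synthase gene, and *Phex* to *Gpr116* (0.976), an adhesion receptor gene. *Ank* ran closest to *Litaf* (0.979), which averaged 21.8 NRPKM in proliferative and 43.6 in hypertrophic libraries. *Enpp1* ran with *Cav1* (0.889), *Slc20a1* with *Man1b1* (0.922) and *Slc20a2* with *Tns3* (0.939). *Mgp* ran with *Soat1* (0.930), a cholesterol acyltransferase gene, *Gramd1b* (0.919) and *Stra13* (0.902).

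Some of the 9 genes share their locus with other rows of the table, and whether counting used strand is not stated. *Gm10629*, on the opposite strand within the *Smpd3* locus, averaged 0.248 NRPKM in resting, 23.5 in proliferative, 62.3 in hypertrophic and 1.40 in *aadd*. *Abi3*, on the opposite strand at the end of *Phospho1*, averaged 0.139, 4.71, 14.5 and 0.732 in the same order, and *Zfp652*, on the same strand across it, 15.52, 30.2, 35.3 and 14.2. How reads were divided between these rows is uncertain. *Slc20a2* overlaps *Gm17491* and *Smim19*, the rows within *Ank* (*Gm9948*, *Tiaf2*) and *Phex* (*Gm15172*) were at 0 in all libraries, and *Alpl*, *Enpp1*, *Slc20a1* and *Mgp* overlap none.

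A list of 35 further genes of the same chemistry was measured beside the 9, and 23 of them entered the tests. *Dmp1* and *Fam20c* reached 5 NRPKM in proliferative and hypertrophic libraries alone, and *Enpp6* in hypertrophic and *aadd* libraries alone. The filter thus favoured calls of these genes as higher in those groups, and the counts that hold them are not independent of it. In proliferative against resting cartilage 4 were called higher and 1 lower, 21.7% of those tested beside 5.53% of all genes. With the replicate block 5 were called higher and 1 lower, beside 6.14% of all genes, the further one being *Enpp6* (log2 FC 1.35, limma adjusted *P* = 0.228, in a range up to 0.748 over all alternatives). Its libraries overlapped there. Without the block and with 1 library left out, its log2 FC ran from 0.67 to 2.24, called in 1 of 6 fits. In hypertrophic against proliferative 3 were called higher and 0 lower (13.0% beside 9.67%), and in hypertrophic against resting 4 higher and 0 lower (17.4% beside 13.0%). For *aadd*, 2 were called higher and 0 lower against resting (8.70% beside 6.56%), and 3 higher and 4 lower against proliferative (30.4% beside 15.8%). Without hypertrophic replicate 1, 6 were called higher and 1 lower against proliferative, where 18.4% of all genes were called, and 6 higher and 0 lower against resting, where 19.2% were. The median log2 FC of the list in these comparisons was 0.25, -0.03, 0.31, 0.01 and -0.13, against -0.06, 0.04, -0.02, 0.01 and 0.05 over all genes.

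The sphingomyelin and phosphocholine genes numbered 7, all tested. *Sgms2*, the plasma membrane sphingomyelin synthase, rose with *Smpd3*, from 10.6 to 14.2 NRPKM in resting libraries to 135 to 192 in proliferative and 144 to 368 in hypertrophic, and was 9.60 to 18.7 in *aadd*. Its rise was 13.7-fold from resting to proliferative (limma adjusted *P* = 0.00438) and 17.9-fold from resting to hypertrophic (adjusted *P* = 0.00413), and without hypertrophic replicate 1, the highest library, the latter log2 FC moved from 4.16 to 3.76 and was still called. It was lower in *aadd* than in proliferative cartilage (log2 FC -3.58, adjusted *P* = 0.00202). *Sgms1*, the Golgi synthase, went the other way, 2.30-fold lower in proliferative than in resting (limma adjusted *P* = 0.0856) and 2.41-fold higher in *aadd* than in proliferative (adjusted *P* = 0.0239). *Chka*, choline kinase alpha, was higher in *aadd* than in both, by 1.71-fold against resting (limma adjusted *P* = 0.337) and 2.66-fold against proliferative (adjusted *P* = 0.0172). *Enpp6*, a choline phosphodiesterase gene, rose 18.5-fold from proliferative to hypertrophic (limma adjusted *P* = 0.136) and 47.1-fold from resting (adjusted *P* = 0.0137), to 9.72 NRPKM in replicate 1 and 34.3 and 35.6 in replicates 2 and 3. Its low values in resting (0.194 to 1.18 NRPKM) and proliferative (0.26 to 3.06 NRPKM) libraries make both folds depend on the 0.1 added. Without hypertrophic replicate 1 its log2 FC moved from 4.21 to 4.82 against proliferative and from 5.56 to 6.17 against resting. With 1 library left out the former ran from 3.32 (9.96-fold, without proliferative replicate 2) to 4.88 (29.5-fold, without proliferative replicate 1), called in each, and the latter reached 6.25 without resting replicate 1. It was also called higher in *aadd* (0.790 to 5.81 NRPKM) than in resting (0.194 to 1.18 NRPKM), with overlapping libraries and a call kept in only 2 of 6 fits that left out 1 library, whose log2 FC ran from 1.51 to 2.90 around 2.21. *Smpd1*, the acid sphingomyelinase, was called 1.89-fold higher in *aadd* than in proliferative (limma adjusted *P* = 0.0746) and 2.45-fold higher in hypertrophic than in proliferative, the latter with overlapping libraries and in 2 of 6 such fits. Hypertrophic replicate 1 held 7.19 NRPKM of it and replicates 2 and 3 each 19.5, and without replicate 1 the log2 FC was 1.77 against proliferative and 1.23 against resting, both called. *Smpd2*, a further sphingomyelinase gene, was called against proliferative without replicate 1 (log2 FC 1.07) and not with all libraries (0.95). With 1 library left out its log2 FC ran from 0.80 to 1.15, called in 2 of 6 fits.

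Of the genes tied to *Phex*, *Dmp1*, a matrix phosphoprotein gene of osteocytes, rose 2.34-fold from resting to proliferative (limma adjusted *P* = 0.138) and 13.0-fold from proliferative to hypertrophic (limma adjusted *P* = 0.17), or 30.5-fold from resting to hypertrophic (adjusted *P* = 0.0418), where it was 12.2 NRPKM in replicate 1 and 134 and 171 in replicates 2 and 3. Without replicate 1 its log2 FC against proliferative moved from 3.70 to 4.91 (limma adjusted *P* = 0.00328, in a range up to 0.5 over all alternatives) and against resting from 4.93 to 6.14. Without replicate 3, the highest library, these were 3.01 (8.05-fold) and 4.24, both called. *Dmp1* is also 1 of the 7 osteoblast markers. In *aadd* it was 2.01-fold under proliferative cartilage (limma adjusted *P* = 0.103). *Fam20c*, the kinase of secreted phosphoproteins, was 3.79-fold lower in *aadd* than in proliferative cartilage (limma adjusted *P* = 0.0354). Its calls in proliferative (2.08-fold) and hypertrophic (6.91-fold) against resting came with overlapping libraries and stood in 2 of 6 fits that left out 1 library. Its hypertrophic libraries held 4.12, 37.2 and 54.1 NRPKM. Without replicate 3 the log2 FC against resting moved from 2.79 to 2.08 and was not called. Without replicate 1 its log2 FC was 3.93 against resting (limma adjusted *P* = 0.00308, in a range up to 0.336) and 2.87 against proliferative (adjusted *P* = 0.0091, in a range up to 0.702), called in both. *Fgf23*, the phosphaturic hormone, reached 0.230 NRPKM at most. Among PPi genes *Ppa1*, a cytosolic inorganic pyrophosphatase, was 3.11-fold higher in proliferative than in resting (limma adjusted *P* = 0.104) and 3.26-fold lower in *aadd* than in proliferative (adjusted *P* = 0.0394). Without hypertrophic replicate 1 it was also called lower in hypertrophic than in proliferative (log2 FC -1.18).

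Other parts of the list did not pass in any comparison that used all 3 libraries of each group. These were the annexins of matrix vesicles (*Anxa2*, *Anxa5*, *Anxa6*), the zinc transporters that load alkaline phosphatase (*Slc30a5*, *Slc30a6*, *Slc30a7*), the vitamin K genes needed to carboxylate Mgp (*Ggcx*, *Vkorc1*, *Vkorc1l1*) and the Pi exporter *Xpr1*. *Xpr1* held 14.9 to 19.8 NRPKM outside the hypertrophic compartment, and 14.9, 75.0 and 55.5 in hypertrophic replicates 1, 2 and 3. As with *Ank*, replicate 1 lay with the other compartments, and without it *Xpr1* was called against proliferative (log2 FC 1.83, limma adjusted *P* = 0.00972, in a range up to 0.685 over all alternatives) and against resting (1.98, adjusted *P* = 0.00306, in a range up to 0.493). The osteoclast and osteoblast markers given for *Ank* differed between the same libraries, and their part in these differences was not tested. The intestinal and embryonic alkaline phosphatases were not among the rows tested, and the highest value of *Akp3* was 1.07 NRPKM.

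**Figure D5:**
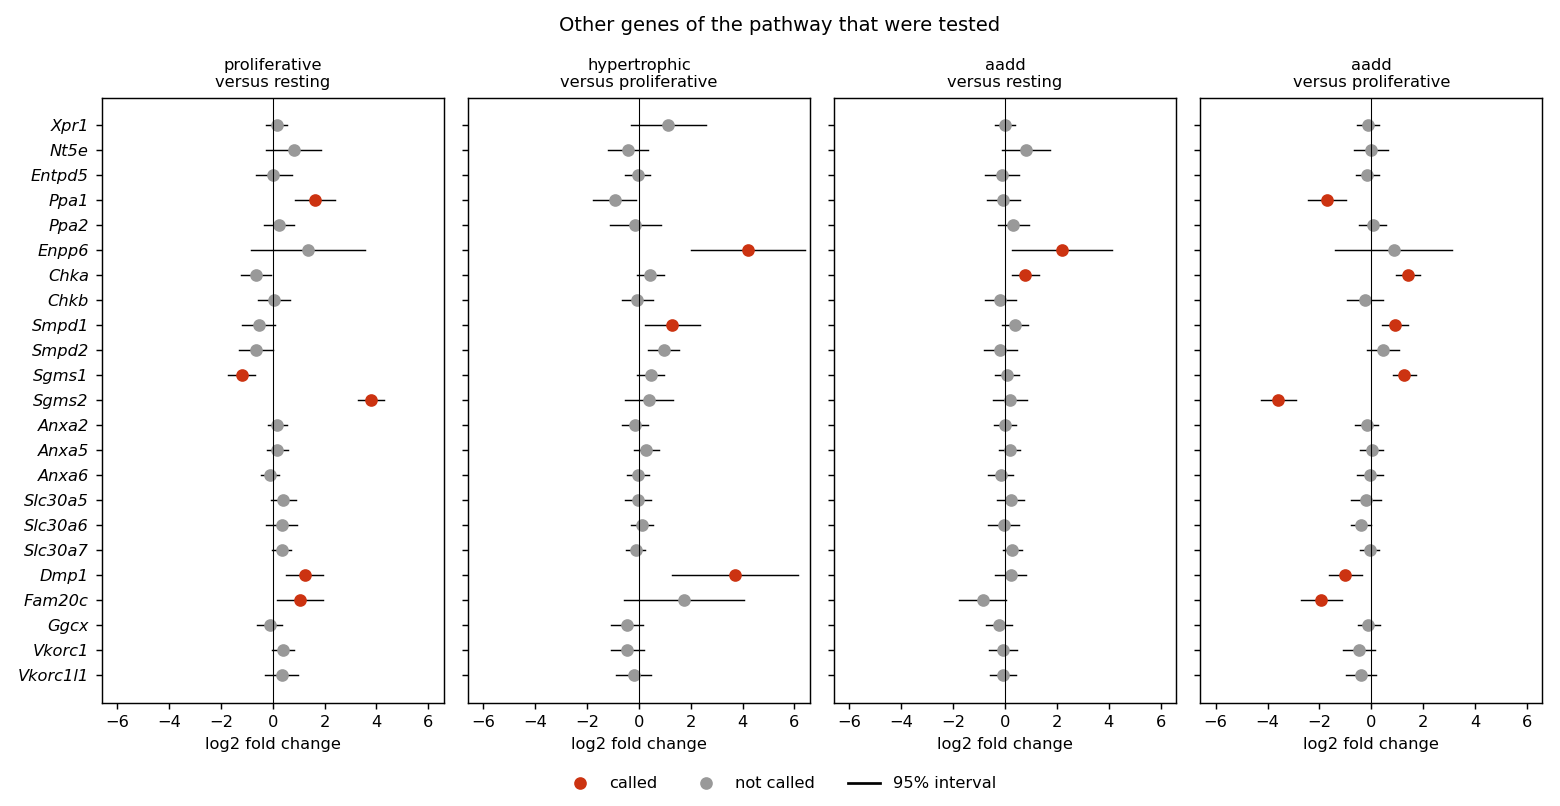
Log2 fold change of the 23 further pathway genes that were tested, in 4 comparisons, with 95% intervals as lines, called genes in red and others in grey. *Sgms2* lies at 3.78 between proliferative and resting and at -3.58 between *aadd* and proliferative, and no gene is called lower between hypertrophic and proliferative, with all 3 libraries a group, or between *aadd* and resting.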

How the data were processed

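RNA was measured in 12 LCM libraries, 3 in each of 4 groups taken from the GEO labels. The authors amplified the RNA, aligned reads to mm10, with TopHat named in the submitters' processing notes, and discarded reads of low quality, duplicates and those aligning to more than 1 place. The authors deposited RPKM values normalized further between libraries (NRPKM), by a method not given in the sources used here, and use of strand is likewise not given there. The table gives no counts. Relative depth was read from the most frequent low value of 1670 single-exon receptor and keratin-associated genes of 300 to 1400 bases, of whose values 83.93% to 94.48% lay within 0.05 of a whole read.

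The tests were run with limma 3.58.1 (R 4.3.3) after adding 0.1 NRPKM and taking log2. They covered the 10936 of 36186 rows that reached 5 NRPKM in 3 or more of the 12 libraries. Each pairwise fit used its 6 libraries and no covariate, and the F test used all 12. Calls follow the study's criteria, an unadjusted *P* of 0.05 or less together with a minimum FC, which was 2 for pairs of WT compartments and 1.5 for *aadd* against resting. Benjamini-Hochberg adjusted *P* is given beside them. The 1.5 was also used here between *aadd* and proliferative, where an FC of 2 was tried after seeing the data. The study's further test on pooled reads was not run. The study describes 3 independent sets of compartments from WT and *aadd*, and does not say whether a set held both. Deviations of same-numbered resting and proliferative libraries from their group means correlated (*r* = 0.281, 0.179 and 0.198), and each library matched its own number best, so that the replicate block is given for that comparison. Each hypertrophic library also matched the resting one of its number best, at a lower *r* (0.066, 0.063 and 0.111), and the block is given there among the alternatives. The pairing comes from these data, since neither the labels nor the study ties a replicate number to a set. The procedure was tested on simulated data.

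All 9 genes are described. Of the 35 further genes, those called in a comparison are named, as is the gene with the highest *r* to each of the 9 (3 for *Alpl* and *Mgp*). The 9 genes and the lists were chosen with earlier results of these data known. Alternatives were a pseudocount of 1, no filter, median-of-ratios and quantile scaling, 1 fit of all libraries, the block, and each library left out. Tables and plots used Python 3.11.15, pandas 2.3.3, numpy 2.4.6, scipy 1.17.1 and matplotlib 3.10.9. All sample columns were used.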

Additional observations from a re-analysis of the deposited data

How the results depend on the processing

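*Alpl*, *Phospho1*, *Smpd3* and *Phex* kept their calls in proliferative and hypertrophic against resting, and in *aadd* against proliferative, in every fit that left out 1 library. By adjusted *P* under 0.05 alone, 2 of the 9 genes passed between proliferative and resting (4 by the criteria used), 0 between hypertrophic and proliferative (3), 0 between *aadd* and resting (1) and 2 between *aadd* and proliferative (6). With an FC of 2, chosen after seeing the data, 4 were called there, beside 8.02% of all genes. With the replicate block *Alpl* did not reach an adjusted *P* under 0.05 between proliferative and resting or between *aadd* and proliferative. With 1 library left out, 0 to 1 gene was called between *aadd* and resting. Some differences that were not called changed sign. Quantile scaling gave *Smpd3* 0.01 between hypertrophic and proliferative and *Enpp1* -0.02 between hypertrophic and resting. With 1 library left out, log2 FC between hypertrophic and proliferative ran from -0.10 to 1.83 for *Phospho1* (1.12 with all libraries), -0.35 to 0.16 for *Smpd3* and -0.04 to 0.46 for *Slc20a1*. Between hypertrophic and resting it ran from -0.41 to 0.46 for *Enpp1*, -0.37 to 0.09 for *Slc20a1* and -0.39 to 0.04 for *Slc20a2*. Between *aadd* and resting it ran from -0.73 to 0.01 for *Enpp1* and -0.07 to 0.29 for *Ank*, and between *aadd* and proliferative from -0.12 to 0.46 for *Enpp1*. The cause was not tested.

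With the replicate block, pairing same-numbered libraries, *Ank* was not called between *aadd* and proliferative (log2 FC 0.66) and the other calls of the 9 genes were kept. Each library matched its own number best only between proliferative and resting and, at a lower *r*, between hypertrophic and resting. Between proliferative and resting *Enpp6* was called with the block and not without it. A pseudocount of 1 (log2 FC 0.57), quantile scaling (0.55) and 1 fit of all libraries (0.66) also ended this *Ank* call. *Ank* was called between hypertrophic and proliferative with a pseudocount of 1 (2.29) and in 1 fit of all libraries (2.46), and between hypertrophic and resting in that fit (1.88). *Slc20a1* was called between *aadd* and proliferative without proliferative replicate 1 (0.76). Over all genes, calls rose without the filter from 605 to 1495 (proliferative against resting), 1057 to 1929 (hypertrophic against proliferative), 1426 to 2537 (hypertrophic against resting) and 717 to 1267 (*aadd* against resting). Genes with an adjusted *P* under 0.05 numbered 68, 0, 696, 13 and 328 in the 5 comparisons, and 9, 0, 241, 0 and 93 with the block. In 1 fit of all libraries there were 128 in the first, 705 in the second and 1605 in the third. Without the filter there were 45 in the second, 305 in the third, 35 in the fourth and 110 in the fifth, and a pseudocount of 1 gave 495 in the fifth. With 1 library left out they numbered 10 to 53, 0 to 1905, 156 to 2651, 3 to 13 and 74 to 317, where 1905 and 2651 came without hypertrophic replicate 1. Hypertrophic against proliferative then gave 2007 calls without hypertrophic replicate 1 and 658 without replicate 3. Depth limits *Phospho1* and the low *Alpl* values, which rest on a few reads. The folds of *Enpp6* likewise depend on low values in resting and proliferative libraries.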
